A study of Mus musculus with 12 samples.

Results

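The endothelial genes described here are 38 genes that endothelial cells, the lining cells of blood and lymph vessels, are known to express: receptors for vessel growth factors, junction and adhesion proteins, transcription factors, G protein coupled receptors with their partner proteins, and further surface, secreted and enzyme genes. They were taken by name, and every probe set annotated to 1 of them alone was read. All 38 were measured, by 70 probe sets of the 44238 tested, out of 17996 genes that the arrays named.

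The pools came from mouse embryos on an FVB background that carry the Tg(Tyr)3412ARpw transgene and the Tg(Sry-EGFP)92EI reporter, a green fluorescent protein driven by Sry sequences, and all 4 groups share both. Somatic support cells, the lineage that forms Sertoli cells in testis and granulosa cells in ovary, were isolated by flow cytometry from XY gonads at embryonic day 12.5 (XY E12.5), XX gonads at the same day (XX E12.5), XY gonads at embryonic day 11.5 (XY E11.5) and XX gonads at that day (XX E11.5). Each group held 3 pools, and the 12 pools had 1 Affymetrix mouse expression array apiece. The study sought candidate genes for the control of sex determination in the gonad. The labels name neither the gate nor the litters behind a pool. The p-values below therefore compare groups with the spread among these pools alone, which may be partly technical.

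Endothelial cells are held together by VE-cadherin (Cdh5) and other junction proteins, and they respond to VEGF through Kdr and to angiopoietins through Tek. Transcription factors of the ETS family (Erg, Fli1, Ets1, Ets2) and of the SoxF group (Sox7, Sox17, Sox18) switch on much of the endothelial program, and Tal1, Lmo2 and Lyl1 are shared with early blood cells. In the mouse XY gonad, endothelial cells enter from the mesonephros around the time of sex determination and build a coelomic artery that XX gonads do not form. In bulk pools such as these, fewer endothelial cells and less RNA per cell cannot be told apart.

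Promoter windows of 250 bases upstream of the annotated gene start were at hand for 19 of the 38 genes (25 windows, RefSeq, GRCm38.p6). They were searched on both strands for the letters CAGGAAG, as ETS factors recognise, and AACAAT, as Sox factors recognise, and neither string contains the other. CAGGAAG or its complement stood in 9 of the 25 windows (36.0%), belonging to 8 genes, and in 10.8% of all 32851 windows of this length. AACAAT or its complement stood in 4 of the 25 (16%), against 9.42% of all windows. A match describes these letters and is not a shown binding site. Below are the windows of Cd34 (chr1:194938571-194938820, plus strand), Emcn (chr3:137340828-137341077, plus strand) and Tek (chr4:94739039-94739288, plus strand), which are among the 6 genes that stood farthest apart in a single pool and had a window, with matches in capitals.
Cd34: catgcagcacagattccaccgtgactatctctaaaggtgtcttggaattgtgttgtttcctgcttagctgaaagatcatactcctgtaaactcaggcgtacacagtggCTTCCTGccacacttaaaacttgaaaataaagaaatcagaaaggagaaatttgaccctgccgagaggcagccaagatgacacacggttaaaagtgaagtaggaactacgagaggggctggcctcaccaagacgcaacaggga
Emcn: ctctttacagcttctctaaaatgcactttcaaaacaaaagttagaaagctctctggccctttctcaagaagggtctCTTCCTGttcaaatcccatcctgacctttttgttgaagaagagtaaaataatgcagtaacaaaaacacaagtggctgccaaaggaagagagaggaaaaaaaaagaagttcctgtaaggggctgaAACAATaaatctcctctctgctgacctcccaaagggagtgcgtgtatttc
Tek: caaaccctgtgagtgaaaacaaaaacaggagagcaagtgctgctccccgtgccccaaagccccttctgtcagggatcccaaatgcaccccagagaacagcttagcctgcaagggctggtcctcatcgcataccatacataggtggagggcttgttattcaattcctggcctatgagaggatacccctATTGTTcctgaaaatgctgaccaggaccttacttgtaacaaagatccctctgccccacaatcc
The Cd34 window held 1 CAGGAAG match and the Tek window 1 AACAAT match, while the Emcn window held 1 of each.

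Values are log2 signals as deposited, so 1 unit is a 2-fold difference, and each gene was read at its brightest probe set, the one with the highest mean over the 12 arrays. Array medians lay between 6.494 and 6.592. At 4 Y-linked probe sets, which have no target in XX cells, XX arrays read 3.33 to 5.17, and this served as a measured range of signal without a transcript. These 4 were kept because every XY array read over 1 log2 unit above every XX array. Y-linked probe sets without that separation were left out, so the range may end too low. No gene of the 38 stayed in that range on all 12 arrays, and 30 lay above it on every array. Pecam1 and Rasip1 lay in it on 11 arrays, Calcrl on 10, Tie1 on 9, Sox7 on 5, Vwf on 3, and Fli1 and Aplnr on 1 each. Of the genes of support cells, Wt1, a regulator of early gonad formation, read 11.92, 11.84 and 12.03 in XY E12.5, 12.06, 12.03 and 11.84 in XX E12.5, 12.45, 12.73 and 12.46 in XY E11.5 and 11.65, 11.53 and 12.45 in XX E11.5. Lhx9, another early gonad regulator, read 8.65, 8.64 and 8.37 in XY E12.5, where it was low, and 12.05 to 12.84 in the other 9 pools. Others of these genes differed between the sexes, with 10 of 14 called at E12.5, 3 higher and 7 lower in XY, against 13.9% of all named genes.

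Pool 2 of XX E11.5 stood apart from the other pools at most of these genes. It was the highest of the 12 arrays for 30 of the 38 (78.9%), against 9.64% of all 17996 named genes. It exceeded every other array by more than 1 log2 unit for 17 of 38 genes (44.7%, against 1.27% of all genes), and by more than 2 for 4 of them. Against the mean of pools 1 and 3 of its own group, it was over 2-fold higher at 27 genes (71.1%, against 6.0% of all genes), with a median difference of 1.83. At the level of probe sets, 51 of 70 (72.9%) were highest there, against 8.63% of all. Because the pool was known to stand apart when the genes were chosen, these counts are a description with no test, and the counts and medians of every comparison between groups are given with and without it.

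**Figure D1:**
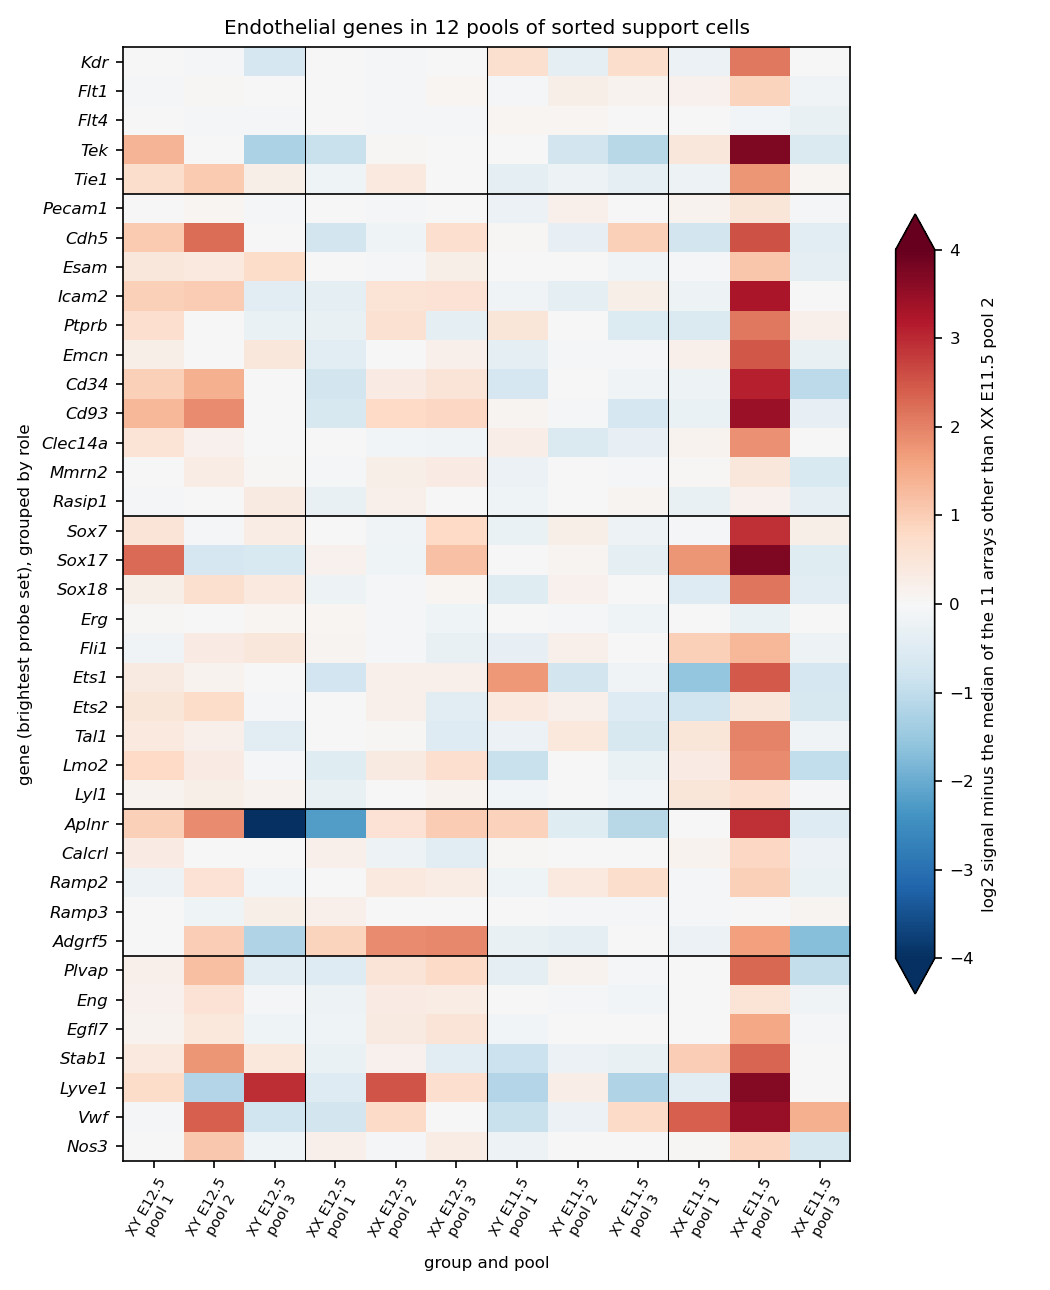
Each cell is the log2 signal of a gene at its brightest probe set minus its median over the 11 arrays other than XX E11.5 pool 2, with genes in rows grouped by role and pools in columns, colour from blue (lower) to red (higher). The column of XX E11.5 pool 2 is red for most rows, with 30 of the 38 genes at their highest there, while Aplnr shows the deepest blue, in XY E12.5 pool 3.

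Among the 5 receptors, 4 were highest in XX E11.5 pool 2 and the median gap to the highest other array was 0.72. Tek, the angiopoietin receptor, read 7.88, 6.52 and 5.23 in XY E12.5, 5.62, 6.56 and 6.51 in XX E12.5, 6.53, 5.77 and 5.39 in XY E11.5 and 6.97, 10.23 and 5.92 in XX E11.5. It lay 2.35 above the next array, the widest gap of the 38, and 13.8-fold above the mean of pools 1 and 3 of XX E11.5. Without that pool the 4 groups overlapped. Kdr, the main signalling receptor for VEGF, read 8.12, 8.07 and 7.44 in XY E12.5, 8.13, 8.06 and 8.13 in XX E12.5, 8.76, 7.74 and 8.82 in XY E11.5 and 7.90, 10.24 and 8.12 in XX E11.5. The XY E11.5 pools 1 and 3 stood next to the high pool, at 8.76 and 8.82. Tie1, an orphan receptor that modulates Tek, read 5.24, 5.60 and 4.77 in XY E12.5, 4.36, 4.93 and 4.54 in XX E12.5, 4.18, 4.35 and 4.17 in XY E11.5 and 4.34, 6.32 and 4.61 in XX E11.5. Its 3 XY E12.5 values lay above all 3 XY E11.5 values, and those of XY E11.5 lay within the range of signal without a transcript. Flt1, a VEGF decoy receptor, read 8.30 in XX E11.5 pool 2, against 7.28 to 7.63 in the other 11 pools. Flt4, the receptor of lymphatic growth factors, read 6.99 in XX E11.5 pool 2, against 6.81 to 7.19 in the other 11 pools and was the 1 receptor whose brightest probe set did not single out the pool; its other probe set read 8.48, against 6.0 to 7.44.

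Of 11 junction and surface adhesion genes, 10 were highest in XX E11.5 pool 2, with a median gap of 1.27. Cdh5, VE-cadherin of the endothelial junction, read 7.32, 8.49 and 6.26 in XY E12.5, 5.53, 6.08 and 6.92 in XX E12.5, 6.31, 5.92 and 7.22 in XY E11.5 and 5.53, 8.81 and 5.81 in XX E11.5. XY E12.5 pool 2 came close to the XX E11.5 pool, 0.32 below it, and the remaining pools lay at 7.32 or less. Pecam1, the junction protein CD31, read 4.94, 5.01 and 4.88 in XY E12.5, 4.91, 4.83 and 4.92 in XX E12.5, 4.69, 5.13 and 4.94 in XY E11.5 and 5.05, 5.39 and 4.87 in XX E11.5. These values span the upper end of the range of signal without a transcript, so this probe set tells little of Pecam1 beyond a gap of 0.26. Icam2, an endothelial ligand of leukocyte integrins, read 7.51, 7.58 and 6.13 in XY E12.5, 6.22, 7.13 and 7.14 in XX E12.5, 6.44, 6.19 and 6.79 in XY E11.5 and 6.36, 9.85 and 6.57 in XX E11.5. Its gap of 2.27 was second to that of Tek.

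Emcn, the sialomucin endomucin of veins and capillaries, read 6.0, 5.78 and 6.23 in XY E12.5, 5.37, 5.80 and 5.97 in XX E12.5, 5.41, 5.72 and 5.74 in XY E11.5 and 5.98, 8.27 and 5.48 in XX E11.5. The other 11 pools spread over only 0.86 log2 units, with XX E11.5 pool 2 at 5.82-fold over the mean of its group's other pools. Cd34, a sialomucin of endothelium and blood progenitors, read 7.23, 7.69 and 6.30 in XY E12.5, 5.53, 6.60 and 6.79 in XX E12.5, 5.60, 6.27 and 6.14 in XY E11.5 and 6.07, 9.37 and 5.23 in XX E11.5. Cd93, a lectin-like receptor that binds the vessel matrix, read 8.18, 8.73 and 6.85 in XY E12.5, 6.22, 7.64 and 7.68 in XX E12.5, 6.97, 6.79 and 6.18 in XY E11.5 and 6.57, 10.30 and 6.51 in XX E11.5. For both, the 2 highest of the remaining pools were XY E12.5 pools 2 and 1, and the fold of XX E11.5 pool 2 over its group's other pools was 13.2 for Cd34 and 13.5 for Cd93.

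Esam, an immunoglobulin-like junction protein also found on platelets, read 8.22, 8.14 and 8.49 in XY E12.5, 7.76, 7.70 and 7.98 in XX E12.5, 7.77, 7.76 and 7.63 in XY E11.5 and 7.68, 8.87 and 7.40 in XX E11.5. All 3 XY E12.5 pools lay above every XX E12.5 and XY E11.5 pool. Ptprb, the phosphatase that acts on Tek and VE-cadherin, read 8.29 in XX E11.5 pool 2, against 5.59 to 6.84 in the other 11 pools. Clec14a, a relative of Cd93, read 7.95 in XX E11.5 pool 2, against 5.53 to 6.68 in the other 11 pools. Mmrn2, the matrix protein that both lectin-like receptors bind, differed between its probe sets: the brightest read 7.64 in XX E11.5 pool 2, against 6.59 to 7.51 in the other 11 pools, and the next 9.99, against 5.92 to 7.67. Rasip1, a Ras-interacting protein needed for vessel lumens, read 5.01 in XX E11.5 pool 2, against 4.47 to 5.21 in the other 11 pools, and it was not highest there.

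Of the 10 transcription factors, 8 were highest in XX E11.5 pool 2, with a median gap of 0.90. Sox7 read 5.72, 5.12 and 5.48 in XY E12.5, 5.19, 5.05 and 5.99 in XX E12.5, 4.93, 5.41 and 5.0 in XY E11.5 and 5.10, 8.11 and 5.42 in XX E11.5. Sox17, its relative in arterial endothelium, read 8.19, 5.24 and 5.30 in XY E12.5, 6.07, 5.74 and 7.07 in XX E12.5, 5.91, 6.02 and 5.54 in XY E11.5 and 7.68, 9.65 and 5.44 in XX E11.5, with XY E12.5 pool 1 and XX E11.5 pool 1 next below the high pool. Sox18, the member of the group that drives lymphatic fate, read 6.88, 7.29 and 7.06 in XY E12.5, 6.45, 6.59 and 6.74 in XX E12.5, 6.19, 6.84 and 6.66 in XY E11.5 and 6.13, 8.79 and 6.21 in XX E11.5. All 3 XY E12.5 pools lay above the 3 XX E12.5 pools and the 3 XY E11.5 pools, though narrowly, at 6.88 against 6.84. Neither difference was called with all arrays (adjusted p = 0.75 against XX E12.5 and 0.70 against XY E11.5, by limma). The SoxF genes thus shared the high pool at their brightest probe sets, but the second probe sets of Sox7 and Sox17 did not, at 4.98 and 5.55 against highest other values of 5.24 and 5.84.

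The ETS genes divided. Ets1 read 11.19 in XX E11.5 pool 2, against 7.19 to 10.46 in the other 11 pools, the highest of them being XY E11.5 pool 1. Fli1 read 6.79 in XX E11.5 pool 2, against 5.14 to 6.43 in the other 11 pools, and its other probe set 8.44, against 3.91 to 7.13. Erg read 6.44 in XX E11.5 pool 2, against 6.53 to 6.79 in the other 11 pools at its brightest probe set, the lowest of the 12 arrays, yet 9.09, against 5.34 to 7.48 at the other. Ets2, which many cell types express, read 10.87, 11.13 and 10.34 in XY E12.5, 10.40, 10.60 and 9.98 in XX E12.5, 10.78, 10.60 and 9.88 in XY E11.5 and 9.59, 10.84 and 9.77 in XX E11.5. It was bright in every pool, and XY E12.5 pool 2, not the XX E11.5 pool, was highest at 2 of its 3 probe sets. Lmo2, a bridging factor of blood and endothelium, read 8.79, 8.33 and 7.93 in XY E12.5, 7.49, 8.34 and 8.65 in XX E12.5, 7.10, 7.99 and 7.73 in XY E11.5 and 8.32, 9.88 and 7.0 in XX E11.5. Tal1, its partner, read 8.22 in XX E11.5 pool 2, against 5.62 to 6.73 in the other 11 pools, and Lyl1, the relative of Tal1, 6.66, against 5.70 to 6.48, with XX E11.5 pool 1 the next highest for both.

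Among 5 G protein coupled receptor genes and their partners, 3 were highest in XX E11.5 pool 2. Aplnr, the apelin receptor of venous and sprouting endothelium, read 13.04 in XX E11.5 pool 2, against 4.90 to 12.02 in the other 11 pools, and the low end was XY E12.5 pool 3 alone, since the next lowest pool read 7.89. Its other probe set did not show that low value, at 6.89 in the same pool. Calcrl, the adrenomedullin receptor, read 5.70 in XX E11.5 pool 2, against 4.42 to 5.20 in the other 11 pools, and a dimmer probe set of it 6.79, against 3.64 to 4.66. Ramp2, the partner that makes Calcrl an adrenomedullin receptor, read 9.73 in XX E11.5 pool 2, against 8.50 to 9.47 in the other 11 pools, whereas Ramp3 read 6.83, against 6.66 to 7.05. Adgrf5, an adhesion receptor of endothelium and some epithelia, read 8.08, 9.05 and 6.88 in XY E12.5, 8.98, 9.96 and 9.99 in XX E12.5, 7.79, 7.72 and 8.11 in XY E11.5 and 7.83, 9.72 and 6.37 in XX E11.5. At this probe set XX E12.5 pools 2 and 3 were as high as XX E11.5 pool 2, and at the other the pool stood alone, at 9.69, against 4.78 to 7.78.

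Of the 7 remaining genes, 5 were highest in XX E11.5 pool 2. Plvap, the protein of endothelial diaphragms, read 7.92, 8.90 and 7.29 in XY E12.5, 7.20, 8.24 and 8.49 in XX E12.5, 7.36, 7.84 and 7.64 in XY E11.5 and 7.71, 10.01 and 6.76 in XX E11.5. Lyve1, a hyaluronan receptor of lymphatic endothelium and of some macrophages, read 7.24, 5.36 and 9.46 in XY E12.5, 6.01, 9.02 and 7.19 in XX E12.5, 5.35, 6.80 and 5.33 in XY E11.5 and 6.07, 10.19 and 6.52 in XX E11.5. It varied widely, with XY E12.5 pool 3 and XX E12.5 pool 2 also above 9, so that no group held together. Stab1, a scavenger receptor of sinusoidal endothelium and macrophages, read 8.24, 9.61 and 8.25 in XY E12.5, 7.58, 8.02 and 7.43 in XX E12.5, 6.97, 7.62 and 7.54 in XY E11.5 and 8.83, 10.18 and 7.84 in XX E11.5. Vwf, the clotting factor carrier of endothelium and megakaryocytes, read 5.47, 7.90 and 4.71 in XY E12.5, 4.79, 6.29 and 5.51 in XX E12.5, 4.63, 5.27 and 6.27 in XY E11.5 and 7.89, 8.99 and 6.93 in XX E11.5. All 3 XX E11.5 pools lay above all 3 XY E11.5 pools and all 3 XX E12.5 pools at Vwf. Egfl7, a secreted regulator of vessel tubes, read 9.12 in XX E11.5 pool 2, against 7.40 to 8.11 in the other 11 pools. Eng, a TGF-beta co-receptor, read 7.69 in XX E11.5 pool 2, against 6.95 to 7.72 in the other 11 pools, and Nos3, endothelial nitric oxide synthase, 6.90, against 5.40 to 7.12, both with XY E12.5 pool 2 slightly higher.

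**Figure D2:**
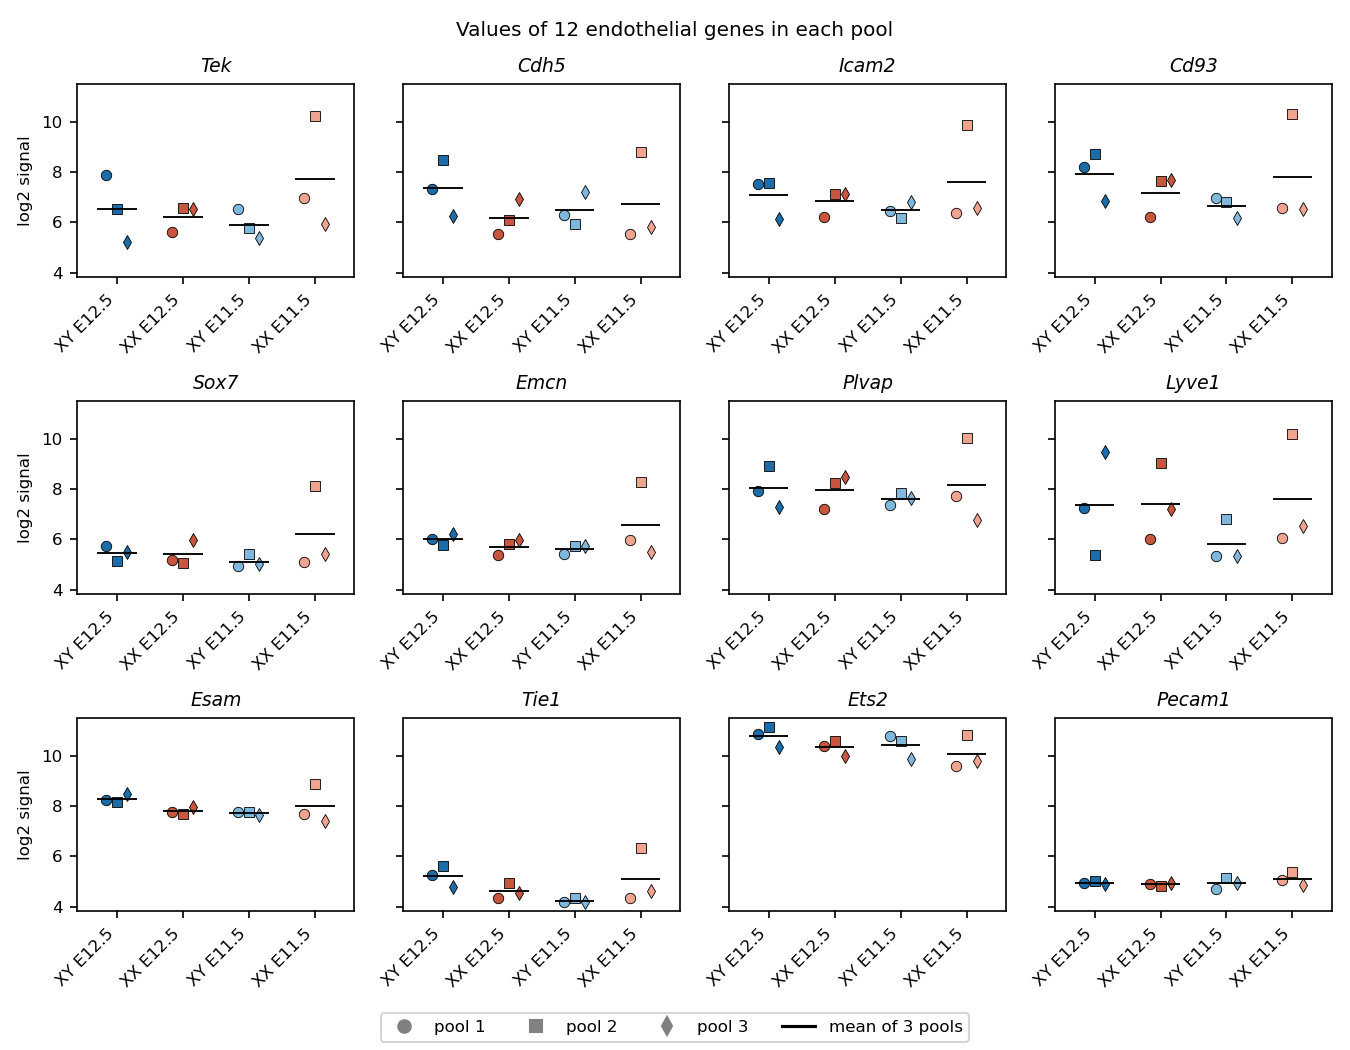
Log2 signal (y axis) of 12 of the endothelial genes at their brightest probe set, with the 4 groups on the x axis, 1 marker for each pool (circle, square and diamond for pools 1, 2 and 3) and a line at the mean of 3 pools. The square of XX E11.5 is the highest point in every panel except that of Ets2, where XY E12.5 pool 2 is at 11.13.

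Probe sets of a gene did not always go together. At least 1 probe set was highest in XX E11.5 pool 2 for 34 of the 38 genes, and for Rasip1, Ets2, Ramp3 and Nos3 none was. Flt4, Erg, Adgrf5 and Eng were not highest there at their brightest probe set but were so at another, Eng with 8.34, against 5.51 to 7.22. The reverse held for Cdh5, Cd93, Sox7, Sox17, Ets1 and Calcrl, where at least 1 dimmer probe set was not highest there. Such probe sets of Cd93 read 5.68, 5.25 and 4.89 in that pool, against highest other values of 5.99, 5.85 and 5.27. Those of Ets1 read 6.46 and 5.50, against 6.87 and 6.15. That of Cdh5 read 4.90, against 5.07, and that of Calcrl 4.14, against 4.17. All RNA had been amplified in 2 rounds. Whether the disagreements followed from the amplification, the position of the probes or transcript variants was not tested.

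With XX E11.5 pool 2 left out, XY E12.5 pool 2 was the highest of the 11 arrays for 13 of the 38 genes (34.2%, against 13.0% of all genes). XY E12.5 pools 1 and 3 were highest for 6 each (15.8%, against 9.78% and 12.1% of all genes) and XX E12.5 pool 3 for 4 (10.5%, against 12.2%). XY E12.5 pool 2 also lay over 2-fold above the mean of its group's other pools at 8 genes (21.1%, against 2.32% of all). The lowest array of the 12 was XX E11.5 pool 3 for 11 genes, more than for any other pool. The share of all genes lowest there was not counted. In that pool the median distance from the 12-array median was -0.27 over the 38 genes and -0.1 over all named genes, both the lowest of the 12 pools. The genes varied together more with the high pool than without it. The median Pearson correlation over the 703 pairs of genes was 0.58 over 12 arrays and 0.21 over 11 arrays, and the share of pairs above 0.5 was 60.5% and 19.3%. Over the 11 arrays the genes nearest to the median of the other 37 were Cd34 (r = 0.98), Cd93 (0.90), Lmo2 (0.86), Plvap (0.82) and Eng (0.80). Kdr had r = -0.22 and Ramp3 r = -0.50 there. These correlations describe arrays that share groups and amplification.

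Several other lists, of further endothelial markers, of markers of other cells and of mitosis genes, were also high in the same pool. That pool was the highest array for 9.64% of all named genes. Of 28 further endothelial markers, 15 were highest in XX E11.5 pool 2, among them Cldn5, a tight junction protein, at 9.76, against 6.38 to 8.04 in the other 11. Of 13 genes of interstitial mesenchyme, 8 were, with a median of 1.75 above their 12-array median in that pool; Nr2f1 read 10.33, against 5.39 to 7.63 elsewhere, Tcf21 9.82, against 5.75 to 8.0 and Lum 8.14, against 5.56 to 6.34. Of 6 genes of megakaryocytes and platelets, 5 were, with Pf4 at 11.81, against 5.96 to 10.50, and XX E11.5 pool 1 was the highest of the remaining arrays for all 6. Of 20 macrophage and leukocyte genes, 5 were, among them Ptprc at 8.74, against 4.68 to 6.98. This was not particular to the pool, since XY E12.5 pool 2 was also highest for 5 of the 20. The list's median above its 12-array median was 0.43 in XX E11.5 pool 2 and 0.57 in XY E12.5 pool 3. The 10 pericyte and smooth muscle genes went both ways: 3 were highest there, with Rgs5 at 11.38, against 5.64 to 8.52, 2 lay over 2-fold below the mean of the group's other pools, among them Myh11 at 7.24, against 5.77 to 9.51, and the list's median was 0.15 above its 12-array median. Of 13 mitosis genes, 9 were highest in XX E11.5 pool 2, with Plk1 at 9.13, against 5.68 to 8.18, while all 3 XY E12.5 pools were also above the 12-array median of that list. Of 11 erythroid genes 1 was highest there (Gata1, 9.09%), and of 13 germ cell genes 2 were (Kit and Prdm1, 15.4%), against 9.64% of all named genes.

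Of 14 support cell genes, 0 were highest in that pool, against 9.64% of all named genes, and their median lay 0.29 below the 12-array median. Several of these genes differ by sex or day, so the share over all genes is no fair measure for them. In XX, for example, Foxl2 and Rspo1 were higher at E12.5 than at E11.5, by 2.89 and 2.33. Within XX E11.5, pools 1 and 3 were highest for 1 and 2 of the 14. Against the mean of those pools, the median of pool 2 differed by -0.56. Levels were also summed over genes on the linear scale, where the brightest genes weigh most. The endothelial genes came to a log2 level of 14.88 in XX E11.5 pool 2, against 12.40 to 13.76 in the other 11 pools. Aplnr alone read 13.04 in XX E11.5 pool 2. The summed level of support cell genes was 14.11 in XX E11.5 pool 2, against 14.68 and 14.91 in pools 1 and 3 of the group. For interstitial mesenchyme the sums were 13.99 in XX E11.5 pool 2, against 12.12 to 13.77 elsewhere, and for macrophages and leukocytes 13.54, against 10.84 to 13.03. What part other cell types had in the endothelial values of this pool was not tested.

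**Figure D3:**
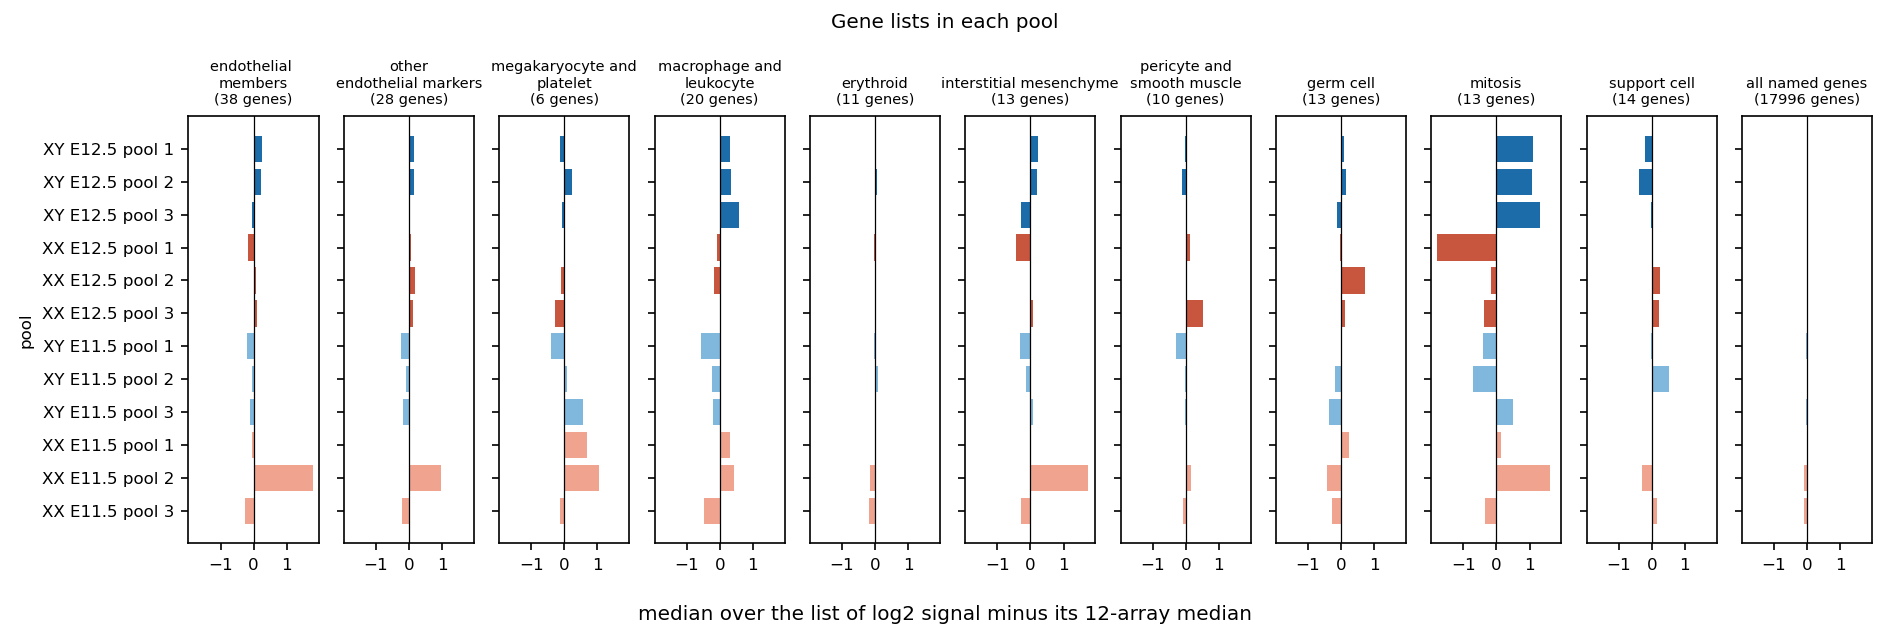
For each list of marker genes (panels, with the number of genes) and each pool (rows), the bar is the median over the list of log2 signal minus the gene's median over 12 arrays, and all named genes are at the right. The endothelial genes reach 1.78 in XX E11.5 pool 2 and between -0.27 and 0.25 in the others, and the interstitial mesenchyme and mitosis lists are also high there.

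At E11.5, XY against XX, none of the 70 probe sets was called at an adjusted p under 0.05, where 0.0678% of all probe sets were (limma, Benjamini-Hochberg over 44238). At an unadjusted p under 0.05, 5 of the 70 passed. With all arrays the median difference over the 38 genes was -0.51 and 32 were lower in XY, against a median of 0.05 over all probe sets, of which 40.7% were lower. Without XX E11.5 pool 2 the median was 0.02 with 21 of 38 higher in XY, and again none of 70 was called (0.061% of all, 4 at an unadjusted p under 0.05). Vwf had the lowest p with all arrays, with means of 5.39 ± 0.83 in XY and 7.94 ± 1.03 in XX (SD, n = 3 each), a difference of -2.55 ± 0.82 (SE) and an adjusted p of 0.60 by limma. Without the pool it was -2.02 ± 0.89 (SE). Leaving out XX E11.5 pool 1 or pool 3 instead gave a median over the 38 genes of -0.78 or -0.86. Medians of other lists moved with the pool too, at -0.66 with it and 0.05 without it for interstitial mesenchyme, -0.66 and -0.03 for mitosis and -0.55 and -0.28 for macrophages and leukocytes.

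At E12.5, XY against XX, again none of the 70 was called, against 7.72% of all probe sets, and none passed an unadjusted p under 0.05. The median difference was 0.17, with 28 of 38 genes higher in XY, against -0.00 over all probe sets, of which 49.3% were higher. This median ran from 0.03 without XX E12.5 pool 1 to 0.36 without XY E12.5 pool 3, and was 0.07 over the brighter probe sets. In the same comparison 7 of 13 mitosis genes were called higher in XY (list median 2.10), where 13.9% of all named genes were called, up or down. The summed level of macrophage and leukocyte genes was 12.51 to 12.96 in XY, against 12.12 to 12.22 in XX. Their part in the endothelial values was not tested. Cdh5 averaged 7.36 ± 1.12 in XY and 6.17 ± 0.70 in XX (SD, n = 3 each), with a difference whose 95% interval ran from -0.72 to 3.09, and from -0.11 to 2.48 without XX E11.5 pool 2. Fitted without XX E11.5 pool 2, which is in neither group but adds to the shared estimate of the spread, 5 of 70 passed an unadjusted p under 0.05 and none was called (8.51% of all). Esam came nearest, at 0.47 ± 0.13 (SE) with an adjusted p of 0.065 by limma, and Adgrf5 was at -1.64 ± 0.56 (SE) with 0.12. With all arrays the SE was 0.31 for Esam and 0.76 for Adgrf5, with adjusted p-values of 0.46 and 0.27 by limma.

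In XX, E12.5 against E11.5, none of 70 was called with all arrays (3.11% of all; 5 at an unadjusted p under 0.05). The median difference turned with the pool: it was -0.41, with 10 of 38 genes higher at E12.5, with all arrays and 0.17, with 25 higher, without XX E11.5 pool 2, against 0.06 and 0.05 over all probe sets. None was called without it either (1.34% of all; 3 at an unadjusted p under 0.05). Adgrf5 averaged 9.64 ± 0.57 at E12.5 and 7.97 ± 1.68 at E11.5 (SD, n = 3 each). Its difference was 1.67 ± 0.76 (SE, adjusted p = 0.23) with all arrays and 2.54 ± 0.62 (SE, adjusted p = 0.089) without the pool, by limma. Vwf ran the other way, at -2.41 ± 0.82 (SE, adjusted p = 0.13) with all arrays and -1.88 ± 0.89 (SE, adjusted p = 0.30) without the pool, by limma. Leaving out XX E11.5 pool 1 or pool 3 gave a median over the 38 genes of -0.74 or -0.76, and leaving out XX E12.5 pool 1 gave -0.21. Interstitial mesenchyme genes differed by -0.60 at the median with all arrays and by 0.10 without the pool. With all arrays 3 of these 13 genes were called lower at E12.5, where 5.88% of all named genes were called, up or down.

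**Figure D4:**
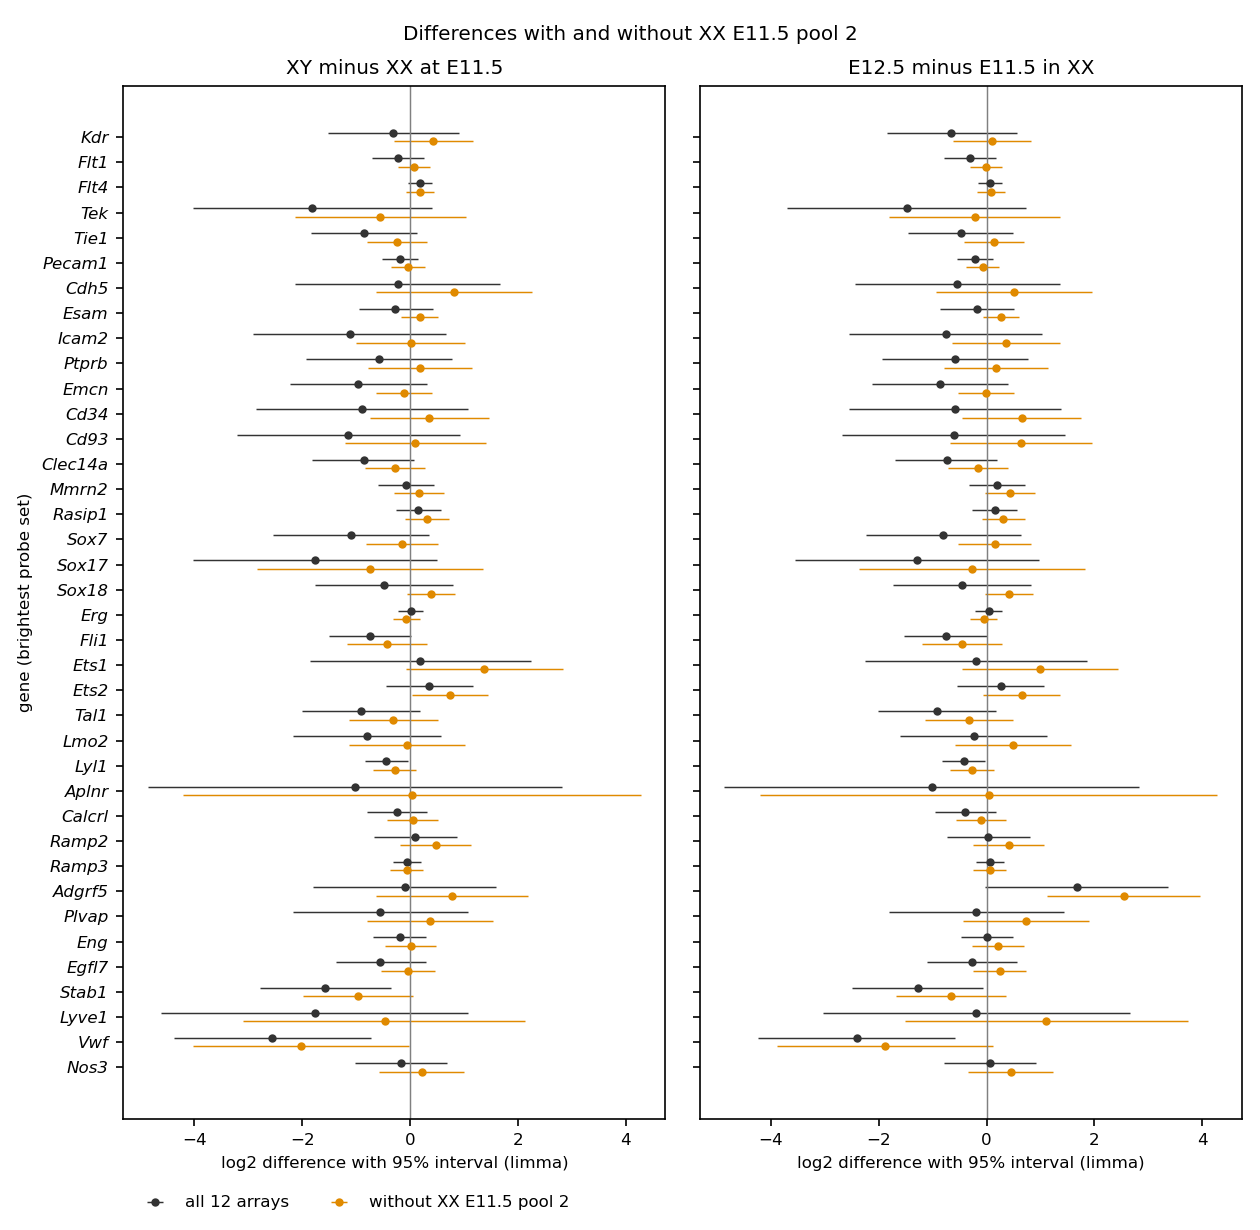
Log2 differences (x axis) with 95% intervals from limma for the 38 genes (y axis), XY minus XX at E11.5 on the left and E12.5 minus E11.5 in XX on the right, with all 12 arrays in black and without XX E11.5 pool 2 in orange. The orange points lie nearer to or right of 0 for most genes, and their medians are 0.02 and 0.17, against -0.51 and -0.41 for the black points.

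In XY, E12.5 against E11.5, 32 of the 38 genes were higher at E12.5 and the median difference was 0.30, against 0.02 over all probe sets, of which 52.5% were higher. Leaving out XY E12.5 pool 2 gave a median of 0.18, and leaving out XY E12.5 pool 3 gave 0.45. Other lists differed in this. The median difference was 0.33 for interstitial mesenchyme genes, 0.29 for germ cell genes and 0.09 for erythroid genes. It was 0.02 for pericytes and smooth muscle, -0.01 for megakaryocytes and platelets and -0.87 for support cell genes. Macrophage and leukocyte genes differed by 0.90 at the median and had a summed level of 12.51 to 12.96 at E12.5, against 10.84 to 11.73 at E11.5. With all arrays 3 of the 20 were called higher at E12.5 (Fcgr3, Ctss and Cd68). Of all 17996 named genes 10.7% were called in this comparison, up or down. Stab1 and Lyve1 are also expressed by macrophages. Mitosis genes differed by 1.43 at the median (1 called higher and 1 lower with all arrays) and had a summed level of 14.03 to 14.27 at E12.5, against 12.47 to 13.72 at E11.5. For the 38 genes the summed level was 12.65 to 13.76 at E12.5, against 12.62 to 13.16 at E11.5. The low end at E12.5 was pool 3, where Aplnr read 4.90 at its brightest probe set, against 11.07 and 12.02 in pools 1 and 2. What part other cells had in the endothelial difference was not tested. With all arrays none of 70 was called (6.16% of all; 2 at an unadjusted p under 0.05). Without XX E11.5 pool 2, 2 of 70 (2.86%) were called, both higher at E12.5, against 6.96% of all probe sets. Tie1 averaged 5.20 ± 0.42 at E12.5 and 4.24 ± 0.10 at E11.5 (SD, n = 3 each), a difference of 0.96 with an SE of 0.22 without the pool and 0.44 with it (adjusted p = 0.033 and 0.26 by limma). All 3 E11.5 values of Tie1 and 1 of its E12.5 values lay in the range of signal without a transcript, so the difference is between signals and gives no fold for the transcript. Esam averaged 8.28 ± 0.18 at E12.5 and 7.72 ± 0.08 at E11.5 (SD, n = 3 each), a difference of 0.57 with an SE of 0.13 without the pool and 0.31 with it (adjusted p = 0.037 and 0.35 by limma). The differences themselves did not move, since the pool is in neither group. The share called was below that of all probe sets in both fits.

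The difference between the day changes of the sexes, XY minus XX, had a median of 0.70 over the 38 genes, with 33 above 0, against -0.06 over all probe sets. Without XX E11.5 pool 2 it was 0.17, with 23 above 0, and without XX E11.5 pool 3 it was 1.07. Some other lists had medians of the same sign: 2.75 for mitosis (2.08 without XX E11.5 pool 2), 0.96 for interstitial mesenchyme (0.26) and 0.88 for macrophages and leukocytes (0.68). For megakaryocytes and platelets it was 0.58 (0.34). The sign was opposite for support cell genes, at -1.53 (-1.39), and for pericytes and smooth muscle, at -0.20 (-0.42). Erythroid genes were at -0.11 (-0.02) and germ cell genes at -0.05 (-0.02). What part other cells had in the endothelial values was not tested. None of 70 was called with all arrays (1.75% of all; 4 at an unadjusted p under 0.05) or without the pool (1.35% of all; 4 at an unadjusted p under 0.05). Stab1 had the lowest p, at 2.60 ± 0.77 (SE, adjusted p = 0.14) with all arrays and 1.98 ± 0.61 (SE, adjusted p = 0.20) without the pool, by limma.

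By role, the junction and adhesion genes had the highest median day change in XY, 0.46, followed by 0.42 for the further surface, secreted and enzyme genes, 0.29 for transcription factors, 0.06 for G protein coupled receptors and -0.08 for receptors. In XX the medians with all arrays were -0.58 for junction and adhesion genes, -0.19 for the further surface, secreted and enzyme genes, -0.44 for transcription factors, 0.03 for G protein coupled receptors and -0.48 for receptors. Without XX E11.5 pool 2 all 5 of these medians in XX were above 0, from 0.05 for transcription factors to 0.31 for junction and adhesion genes.

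With all 12 arrays, calls in the wider vascular system fell on genes other than the 38. A gene counts here as called where any of its probe sets was, and shares are set against all 17996 named genes. Of 71 further genes (19 ligands, 24 receptors and effectors and 28 endothelial markers), 4 were higher and 5 lower in XY than in XX at E12.5 (12.7%, against 13.9% of all genes). In XX, 2 were higher and 1 lower at E12.5 than at E11.5 (4.23%, against 5.88%), and in XY 4 were higher and 4 lower at E12.5 (11.3%, against 10.7%). These shares lay near those of all genes. The interaction of sex and day was called above 0 for 3 and below 0 for 3 (8.45%, against 3.55%), and none was called between the sexes at E11.5 (0.0834% of all). In the fit without XX E11.5 pool 2 the counts were 7 and 9 for sex at E12.5 (22.5%, against 15.2%), 3 and 2 for day in XX (7.04%, against 2.57%), 8 and 4 for day in XY (16.9%, against 12.2%), 2 and 3 for the interaction (7.04%, against 2.71%) and none for sex at E11.5 (0.0556% of all). Sema3a, a guidance ligand that restrains vessel and nerve growth, read 7.85, 7.73 and 8.52 in XY E12.5, 11.06, 11.37 and 11.25 in XX E12.5, 10.02, 10.43 and 9.92 in XY E11.5 and 9.46, 8.91 and 9.51 in XX E11.5. It was lower in XY at E12.5 by 3.19 log2 units (-3.19 ± 0.24, SE, adjusted p = 4.5e-05 by limma), and the groups did not overlap. Adm, the ligand adrenomedullin of the Calcrl receptor, read 8.52, 7.75 and 7.17 in XY E12.5, 11.61, 11.65 and 11.77 in XX E12.5, 10.94, 10.34 and 10.70 in XY E11.5 and 11.24, 11.03 and 11.81 in XX E11.5. Its difference at E12.5 was -3.86 ± 0.32 (SE, adjusted p = 7.6e-05 by limma). Nrp1, the co-receptor of VEGF and semaphorins, was also lower in XY at E12.5, at -3.11 (adjusted p = 0.0028 by limma), and Kank3, an ankyrin-repeat adaptor of the cytoskeleton, at -1.99 (adjusted p = 0.00045 by limma). All 4 of these calls at E12.5 stood without XX E11.5 pool 2, with adjusted p-values of 6.3e-05 for Sema3a, 0.00014 for Adm, 0.0045 for Nrp1 and 0.00081 for Kank3 by limma.

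Jag1, a Notch ligand, read 9.87, 9.67 and 9.94 in XY E12.5, 7.37, 7.10 and 8.09 in XX E12.5, 6.55, 6.10 and 5.78 in XY E11.5 and 6.78, 8.39 and 6.31 in XX E11.5, and was higher at E12.5 than at E11.5 in XY by 3.69 ± 0.47 (SE, adjusted p = 0.0017 by limma, 0.00014 without XX E11.5 pool 2). Acvrl1, the endothelial receptor of bone morphogenetic proteins that works with Eng, was higher by 1.00 in the same comparison (adjusted p = 0.0075 by limma, 0.0033 without the pool), with 6.78, 6.96 and 6.96 at E12.5 and 5.78, 5.78 and 6.14 at E11.5. In XX, Sema3a was higher at E12.5 by 1.93 (adjusted p = 0.0054 by limma; 1.74 and 0.017 without XX E11.5 pool 2), Pdpn, a glycoprotein of lymphatic endothelium, by 1.16 (adjusted p = 0.024 by limma, 0.070 without XX E11.5 pool 2), and Mef2c, a transcription factor of muscle and endothelium, was lower at the probe set called, at -2.71 (adjusted p = 0.015 by limma; -2.30 and 0.034 without XX E11.5 pool 2). The call of Mef2c ended with the mean of its probe sets (-1.27, adjusted p = 0.10 by limma) and without XX E12.5 pool 3 (-2.51, adjusted p = 0.072 by limma).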

How the data were processed

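Total RNA of 12 pools of flow-sorted gonadal support cells was, per the labels' protocols, extracted with PicoPure reagents, put through 2-round TargetAmp amplification and biotin-labelled. The authors deposited 1 table of log2 values per probe set and array. How they were summarised and normalized, and the log base, is not given in the sources used here, but base 2 was assumed because the largest value is 14.45. Of 45037 probe sets, 798 blank on every array and 1 blank on some were left out, Ptprb having 1 of the blank ones. A single gene symbol was held by 34328 of the 44238 tested, several by 850 (among them 2 that name Ramp2, not used) and none by 9060. With 3 arrays in a group, their number sets the precision.

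The groups were compared in R 4.3.3 with limma 3.58.1 (functions lmFit and eBayes; 4 group means over all 12 arrays, 8 residual and 2.11 prior degrees of freedom), two-sided. A probe set was called where its p, adjusted by Benjamini-Hochberg across the 44238, was under 0.05. Every p-value comes from limma. The fit was tested on simulated data. Alternatives were quantile normalization, median centring, a filter on dim probe sets, a variance prior following the mean, array weights, the pool number as a block, only the groups compared, genes averaged over their probe sets, and leaving out each array. Promoter windows and gene names came from RefSeq tables (GRCm38.p6). Tables and figures were made in Python 3.11.15 with matplotlib 3.10.9.

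The 38 genes and all lists were chosen with earlier results of these data known. Values in every pool are given for genes called in any comparison, for a set of core genes (Pecam1, Cdh5, Kdr, Tek, Tie1, Emcn, Plvap, Sox17, Sox18, Lyve1, Lmo2, Ets2) and for the 6 genes whose XX E11.5 pool 2 value lay farthest above the other arrays. Up to 4 called vascular genes per comparison were named by smallest p, and up to 3 genes of each marker list by the distance of that pool. Values of Adgrf5, Stab1, Vwf and Myh11, and the interactions of Jag1 and Hey2, were added after they were seen.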

Additional observations from a re-analysis of the deposited data

Results flagged for a closer look

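Of the 71 further vascular genes, 6 had a day change that differed between XY and XX by the test of the difference itself (limma, interaction of sex and day, Benjamini-Hochberg over all probe sets). Sema3a had an interaction of -4.02 ± 0.34 (SE, adjusted p = 0.00053), with day changes of -2.09 in XY and 1.93 in XX. Adm had -3.16 ± 0.45 (SE, adjusted p = 0.0067), with -2.85 in XY. Kank3 had -1.82 ± 0.31 (SE, adjusted p = 0.018), and Acvrl1 had 1.20 ± 0.24 (SE, adjusted p = 0.036) with a day change of 1.00 in XY. Jag1 had 3.33 ± 0.66 (SE, adjusted p = 0.037) and Hey2, a Notch target, 2.47 ± 0.53 (SE, adjusted p = 0.049). Without XX E11.5 pool 2 the interactions were -3.83 for Sema3a (adjusted p = 0.0013), -3.00 for Adm (0.019), -1.75 for Kank3 (0.045), 1.03 for Acvrl1 (0.049), 2.71 for Jag1 (0.017) and 2.15 for Hey2, whose call ended (0.088), all by limma. Leaving out single arrays ended the call of Kank3 for 3 of 12 arrays, XY E11.5 pool 2 and XX E12.5 pools 2 and 3. It ended that of Acvrl1 for 7 of 12, namely all 3 XY E12.5 pools, XX E12.5 pools 2 and 3 and XY E11.5 pools 1 and 2. It ended that of Jag1 for 8 of 12, the 6 E12.5 pools and XY E11.5 pools 2 and 3, and that of Hey2 for 11 of 12, all but XY E12.5 pool 2. None of the 38 endothelial genes met this condition, by the same limma test (4 of their 70 probe sets at an unadjusted p under 0.05).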

How the results depend on the processing

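No probe set of the 38 genes was called in any of the 5 comparisons under any alternative that kept all 12 arrays. With single arrays left out, the count ran from 0 to 1 for E12.5 against E11.5 in XX and from 0 to 2 for E12.5 against E11.5 in XY, and was 0 for the other 3. The 1 was Fli1, without XX E11.5 pool 3, at -1.21 (adjusted p = 0.043 by limma) against -0.76 with all arrays (0.22), and the 2 were Tie1 and Esam without XX E11.5 pool 2. Median differences over the 38 genes ran, with single arrays left out, from -0.86 to 0.02 for XY against XX at E11.5, 0.03 to 0.36 for XY against XX at E12.5, -0.76 to 0.17 for day in XX, 0.18 to 0.45 for day in XY and 0.17 to 1.07 for the interaction. The ends were set by XX E11.5 pools 3 and 2 for the comparisons that contain that group, by XX E12.5 pool 1 and XY E12.5 pool 3 for sex at E12.5, and by XY E12.5 pools 2 and 3 for day in XY. With all arrays and the filter to brighter probe sets the medians were -0.27 for sex at E11.5, 0.07 for sex at E12.5, -0.20 for day in XX, 0.27 for day in XY and 0.44 for the interaction. The share of the 38 genes highest in XX E11.5 pool 2 was 78.9% with quantile normalization or median centring and 89.5% when each gene's probe sets were averaged, and 72.9% of the 70 probe sets were highest there. Of 18 pairs of same-numbered pools, 4 correlated above 0.1 in their deviations from group means, over a range from -0.40 to 0.23. The labels do not say whether pool numbers link the samples, and these correlations cannot decide it. With the replicate block, 0 of 70 were called in each of the 5 comparisons, and the interaction calls of Acvrl1 (adjusted p = 0.076 by limma), Jag1 (0.077) and Hey2 (0.097) ended. Mef2c lost its call in XX with the mean of its probe sets (-1.27, adjusted p = 0.10 by limma), Pdpn when only the groups compared were fitted (0.054), and both with some arrays left out; the causes were not tested. The interaction could not be fitted with only the groups compared.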
